A study of Mus musculus with 6 samples.

Results

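The AP-1 transcription factor genes Jun, Junb, Jund, Fos, Fosb, Fosl1, Fosl2, Atf3 and Maff were followed across 6 mouse cell samples. They were chosen by name, as every probe set whose only gene symbol was one of theirs, with earlier results of these data known. The platform annotation gave 13 such probe sets for the 9 genes, of 45037 probe sets that are not array controls and 18193 named genes. Jun, Jund, Fosl1 and Fosl2 had 2 probe sets each, and the remaining 5 genes had 1. All 9 genes were measured in both sets of signals deposited for these arrays.

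The samples were SYF cells, mouse embryonic fibroblasts without the kinases Src, Yes and Fyn, stably carrying a mutant Src under hygromycin selection. Both mutants hold Y527F, which takes away the tyrosine through which the tail of Src keeps the kinase shut. The R388A/Y527F mutant lacks a catalytic arginine, and imidazole can restore the activity of that kinase. The D386N/Y527F mutant lacks the catalytic aspartate and served as the line that imidazole does not rescue. All cells were starved of serum overnight. Then R388A/Y527F cells were taken at 0 h without imidazole, or after 1 h or 12 h with 5 mM imidazole, and D386N/Y527F cells were taken at the same times with the same doses. Each of the 6 groups was 1 sample on 1 Affymetrix MOE430 2.0 array, so no group had a replicate, and there was no 12 h sample without imidazole among them. Each mutant was represented by 1 transfected line, and whether it was a clone or a pool is not given in the sources used here. The mutation and any other difference between the lines cannot be told apart, nor can 12 h of imidazole and 12 h more without serum.

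AP-1 is a family of basic leucine zipper (bZIP) proteins that bind DNA as pairs. Jun proteins pair with each other or with Fos and Atf proteins, while Fos proteins need a Jun partner to bind DNA, and the pair binds the TPA response element, TGACTCA, or the related cyclic AMP response element, TGACGTCA. In fibroblasts Jun, Junb, Fos, Fosb and Atf3 are early response genes whose mRNAs rise quickly and briefly when serum, growth factors or stress activate the MAP kinases. Fosl1 follows lasting ERK signalling, and AP-1 activity is a known feature of fibroblasts transformed by oncogenic Src or Ras.

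The values are intensities that the authors produced with GCOS and scaled to a trimmed mean of 150 on every array. A second set of intensities of the same arrays, made by a method that is not stated, was read beside them. A signal under 20.4 in the GCOS values or 11.3 in the second summary, the 40th percentile of all signals in each, was treated as a floor. Between 57.8% and 60.8% of the probe sets lay above it on an array. The Gapdh control gave a 3' to 5' ratio of 0.76 to 0.82 and the actin control one of 1.11 to 1.18 over the arrays. All 11 fibroblast markers were above the floor on all 6 arrays in GCOS signal. Their summed signal was 26283.6 to 29750.4 in R388A/Y527F cells and 25350.0 to 27905.7 in D386N/Y527F cells. In the second summary the fibroblast marker Thy1 was under its floor in R388A/Y527F cells. In GCOS signal Krt19 of epithelium, Pecam1 and Tek of endothelium, Ptprc and Cd3e of blood cells and Myog of muscle were below the floor on all 6. Others of these lists were above it on all 6: 1 of 6 epithelial, 1 of 4 endothelial, 3 of 5 blood cell and 0 of 4 muscle markers. All 4 neural markers were above it on all 6 as well. The first Src probe set, 1423240_at, read 19.1 to 66.9 in R388A/Y527F cells and 58.4 to 72.7 in D386N/Y527F cells, and 23.4 to 29.6 against 38.9 to 42.8 in the second summary. The other, 1450918_s_at, read 22.2 to 37.8 in R388A/Y527F cells and 36.0 to 107.3 in D386N/Y527F cells, and 11.8 to 17.2 against 24.2 to 28.6 in the second summary. The lines overlapped in GCOS signal, and in the second summary R388A/Y527F cells were lower with both. Where the probe sets lie relative to the disrupted part of the gene and to the transfected construct is not given in the sources used here, so they do not check the lines.

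Jun, Fosl1, Atf3 and Maff were higher in R388A/Y527F cells than in D386N/Y527F cells at 0, 1 and 12 h, while Junb, Jund, Fos, Fosb and Fosl2 did not pass the test. The lines were compared in limma with time as a second term, R388A/Y527F minus D386N/Y527F, over 29728 probe sets above the floor on at least 2 arrays. All 13 AP-1 probe sets were among them, and 11 were above the floor on all 6 arrays. The fit called 6 of the 13 higher, in 4 genes, and 0 lower, at a Benjamini-Hochberg adjusted p under 0.05. Of all probe sets tested, 6.82% were higher and 7.25% lower. The median log2 difference of the 13 was 0.47, against -0.01 over all probe sets. In the second summary, where Fosb was below the floor on all 6 arrays, the same 6 of 12 were higher and 0 lower, against 10.7% and 14.0% of all. These fits use the 3 times as if they were repeats of a line, with 2 residual degrees of freedom. The p-values measure how far the line difference varied between times, with a variance that limma draws in part from other probe sets. They do not measure the spread between cultures.

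**Figure D1:**
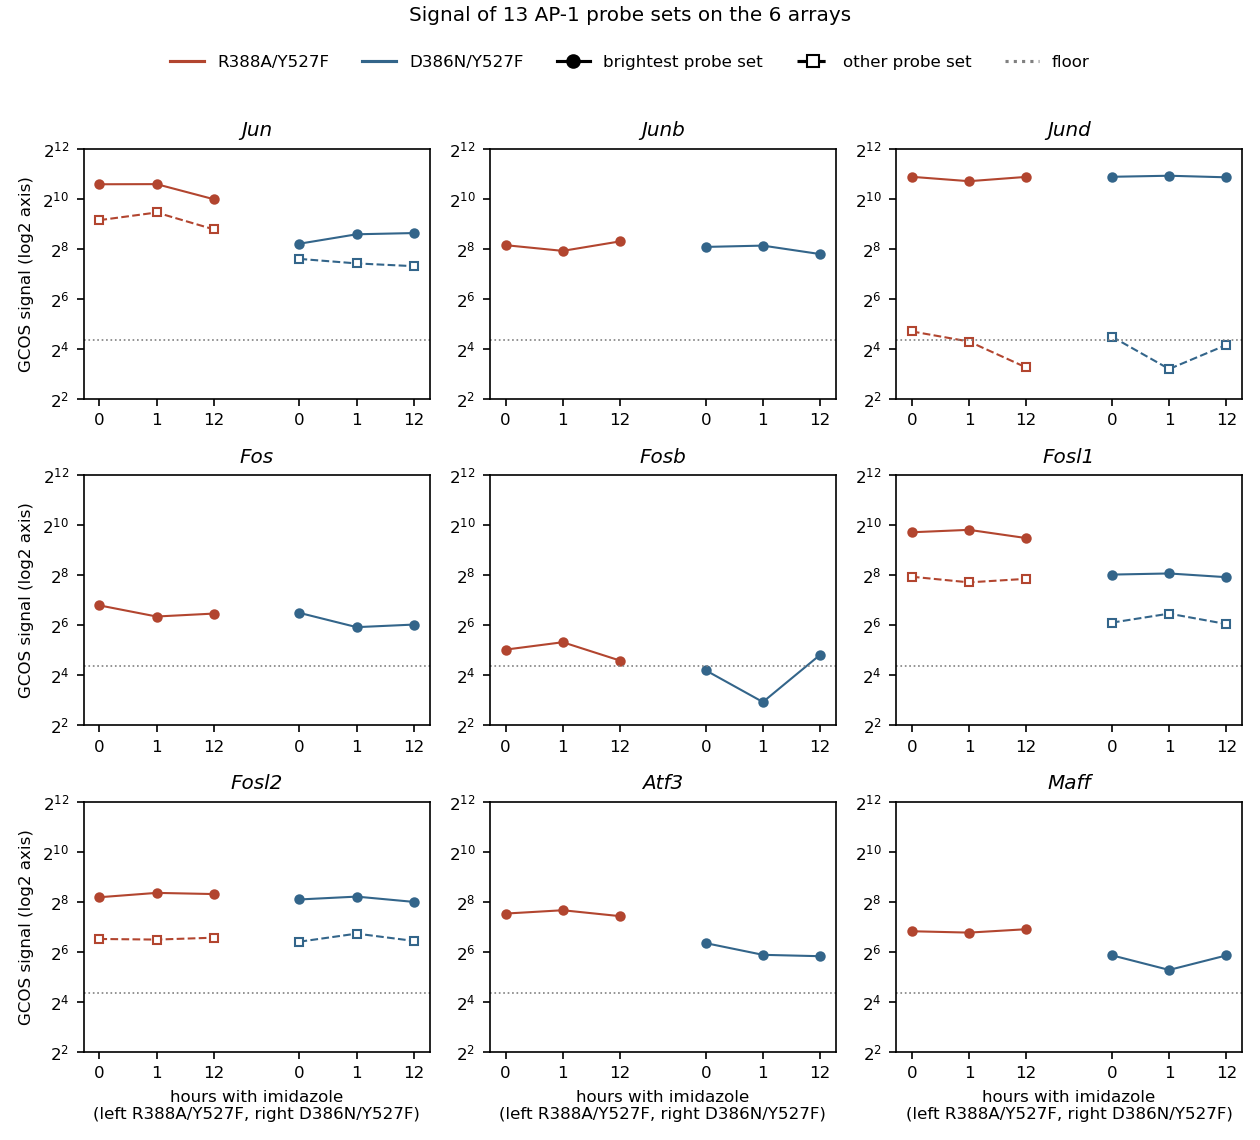
GCOS signal of the 13 AP-1 probe sets on a log2 axis against hours with imidazole, R388A/Y527F arrays on the left of each panel and D386N/Y527F arrays on the right. Each point is 1 array, lines join the arrays of 1 line, open squares are the second probe set of a gene, and the dotted line is the floor of 20.4. Within each probe set of Jun, Fosl1, Atf3 and Maff, every R388A/Y527F array lies above every D386N/Y527F array. Within each probe set of the other 5 panels the arrays of the lines overlap.

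Jun, on chromosome 4, encodes c-Jun, the main target of the JNK kinases and the strongest activator among the Jun proteins. Jun 1417409_at read 1527.7, 1533.6 and 1009.4 at 0, 1 and 12 h in R388A/Y527F cells, against 293.9, 381.6 and 394.8 in D386N/Y527F cells. Jun 1448694_at read 564.5, 698.2 and 437.7 in R388A/Y527F cells, against 192.8, 170.1 and 157.6 in D386N/Y527F cells. With both probe sets the lowest R388A/Y527F array, that at 12 h, was above the highest D386N/Y527F array. The limma difference for Jun 1417409_at was 1.91 on the log2 scale (SE 0.16, 95% interval 1.54 to 2.28), a 3.77-fold difference, with a Benjamini-Hochberg adjusted p of 0.000275. For Jun 1448694_at it was 1.69 (SE 0.12, 95% interval 1.41 to 1.96, adjusted p = 0.000126). Both differences were larger in the second summary, where Jun 1417409_at read 2815.8, 2518.8 and 1879.2 in R388A/Y527F cells, against 567.5, 535.0 and 508.6 in D386N/Y527F cells. Jun 1448694_at read 753.5, 806.8 and 524.0 there in R388A/Y527F cells, against 192.2, 173.4 and 168.7 in D386N/Y527F cells. The limma differences in that summary were 2.14 (SE 0.09, adjusted p = 0.000566) and 1.94 (SE 0.12, adjusted p = 0.00139). Jun 1417409_at had its widest gap at 0 h, before imidazole, with a log2 ratio of 2.38 at 0 h, 2.01 at 1 h and 1.35 at 12 h. Jun 1448694_at did not share that order, with 1.55 at 0 h, 2.04 at 1 h and 1.47 at 12 h.

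Fosl1, on chromosome 19, encodes Fra-1, a Fos protein that lacks the activation domain of Fos and pairs with Jun. Fosl1 1417487_at read 841.9, 900.5 and 716.7 at 0, 1 and 12 h in R388A/Y527F cells, against 260.4, 268.6 and 242.3 in D386N/Y527F cells. Fosl1 1417488_at read 245.4, 209.9 and 231.4 in R388A/Y527F cells, against 68.7, 88.2 and 66.1 in D386N/Y527F cells. The arrays of the lines stood well apart with both probe sets, and the arrays of 1 line lay close together. The limma differences were 1.67 (SE 0.08, 95% interval 1.48 to 1.85, adjusted p = 1.55e-05), or 3.18-fold, and 1.63 (SE 0.17, 95% interval 1.25 to 2.02, adjusted p = 0.000666). In the second summary Fosl1 1417487_at read 703.3, 640.3 and 648.0 in R388A/Y527F cells, against 192.3, 184.9 and 149.3 in D386N/Y527F cells, with the lines far apart. Fosl1 1417488_at read 363.1, 295.1 and 294.5 there in R388A/Y527F cells, against 85.4, 87.6 and 70.5 in D386N/Y527F cells. The limma differences were 1.93 (adjusted p = 0.000615) and 1.97 (adjusted p = 0.000894). The gap of Fosl1 1417487_at was of similar size at each time, with log2 ratios of 1.69, 1.75 and 1.56 at 0, 1 and 12 h.

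Atf3, on chromosome 1, encodes a stress-induced factor that represses as a pair with itself and can activate when paired with Jun. It read 184.3, 202.1 and 171.6 at 0, 1 and 12 h in R388A/Y527F cells, against 81.2, 58.7 and 56.5 in D386N/Y527F cells. The values did not overlap, and the difference was 1.52 (SE 0.18, 95% interval 1.11 to 1.93, limma adjusted p = 0.00123), or 2.87-fold. The second summary read 162.7, 188.3 and 159.0 in R388A/Y527F cells, against 69.7, 83.7 and 36.5 in D386N/Y527F cells. The difference there was 1.51 (SE 0.21, limma adjusted p = 0.00770).

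Maff, on chromosome 15, encodes a small Maf protein, which has a leucine zipper and DNA-binding region but no activation domain. It read 112.9, 108.7 and 119.4 at 0, 1 and 12 h in R388A/Y527F cells, against 57.9, 38.6 and 57.7 in D386N/Y527F cells. The difference was the smallest of those that passed, 1.17 (SE 0.21, 95% interval 0.69 to 1.65, limma adjusted p = 0.00803), or 2.25-fold. The second summary gave 130.9, 98.1 and 187.2 in R388A/Y527F cells, against 73.5, 45.6 and 82.3 in D386N/Y527F cells. The lines did not overlap there either, with a difference of 1.04 (limma adjusted p = 0.00362).

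Promoter sequence is shown for 3 of the genes that were higher in R388A/Y527F cells and for Fos, whose signal was below its 0 h value on every later array. The stretches are the 130 bases before the annotated start in RefSeq, build GRCm38.p6, read along the gene's own strand, which is minus for Jun and Atf3 and plus for Maff and Fos. They span chr4:95052223-95052352 for Jun, chr15:79347390-79347519 for the second of 3 annotated Maff starts, chr1:191183334-191183463 for Atf3 and chr12:85473760-85473889 for Fos. Capitals mark matches to the motifs searched.
Jun: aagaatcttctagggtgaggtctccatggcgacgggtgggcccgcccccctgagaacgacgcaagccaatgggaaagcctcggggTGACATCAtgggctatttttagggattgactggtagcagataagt
Maff: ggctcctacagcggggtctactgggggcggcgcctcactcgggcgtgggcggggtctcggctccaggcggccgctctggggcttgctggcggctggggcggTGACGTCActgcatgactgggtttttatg
Atf3: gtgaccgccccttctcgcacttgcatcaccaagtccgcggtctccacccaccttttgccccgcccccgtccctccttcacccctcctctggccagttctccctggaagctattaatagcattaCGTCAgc
Fos: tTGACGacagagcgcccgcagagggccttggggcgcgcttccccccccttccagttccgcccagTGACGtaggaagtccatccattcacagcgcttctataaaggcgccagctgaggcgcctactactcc

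The capitals in Jun read TGACATCA and begin 45 bases before the start, and those in Maff read TGACGTCA and begin 29 bases before it. The capitals in Atf3 read CGTCA along the gene, which is TGACG on the opposite strand, and begin 7 bases before the start. Fos holds TGACG 129 and 66 bases before its start. TGACATCA is the variant element known from the Jun promoter, bound by Jun with Atf2, and TGACG is the core shared with the cyclic AMP response element.

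The search covered TGACTCA, TGACATCA, TGACGTCA and TGACG on both strands, in the 300 bases from 250 before to 50 after each start, and a TGACG inside TGACGTCA was not marked on its own. The table held 8 of the 9 genes in 10 such windows, with 3 for Maff, and Fosl1 was not in it. TGACTCA was in 0 of the 10 windows, against 5.202% of all 32851 windows. TGACATCA was in 2, those of Jun and the third Maff start, against 3.619% of all, and TGACGTCA was in 1, against 1.79%. TGACG, also where it lies inside TGACGTCA, was in 6 of the 10, against 20.812% of all windows. Beside the matches above, Fosb held it 60 bases before its start, Junb 106 and the third Maff start 122. The windows of the first Maff start, Fosl2 and Jund held none of the motifs searched. The Maff start shown is the one whose window held TGACGTCA. A match describes letters in a window and does not show that a factor bound there.

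The other 5 genes showed no called difference between the lines. Fos, on chromosome 12, encodes c-Fos, which binds DNA with a Jun partner and whose mRNA is short-lived. It read 110.8, 81.4 and 88.3 at 0, 1 and 12 h in R388A/Y527F cells, against 90.0, 60.6 and 65.1 in D386N/Y527F cells. The R388A/Y527F array was the brighter at each time, but the lines overlapped. The difference was 0.39 (95% interval -0.05 to 0.82, limma adjusted p = 0.236), and in the second summary it was 0.46 (95% interval 0.06 to 0.87, limma adjusted p = 0.10). In that summary Fos read 78.7, 63.7 and 67.9 in R388A/Y527F cells, against 71.2, 34.5 and 52.9 in D386N/Y527F cells.

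Fosb, on chromosome 7, encodes a Fos protein with a shorter splice form that lacks the activation domain. Its signals were near the floor, at 32.5, 39.9 and 24.0 in R388A/Y527F cells, against 18.3, 7.6 and 28.1 in D386N/Y527F cells at 0, 1 and 12 h. Both D386N/Y527F values at 0 and 1 h lay under the floor. The difference, with those arrays set to the floor, was 0.47 (95% interval -0.11 to 1.05, limma adjusted p = 0.286). Fosb lay between 4.9 and 8.0 in R388A/Y527F cells and between 6.1 and 6.3 in D386N/Y527F cells in the second summary, all under its floor.

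Junb, on chromosome 8, encodes a Jun protein that often opposes Jun in cell growth. It read 282.1, 240.8 and 313.3 at 0, 1 and 12 h in R388A/Y527F cells, against 268.8, 278.7 and 220.4 in D386N/Y527F cells. Neither line was above the other throughout, and the difference was 0.12 (95% interval -0.19 to 0.43, limma adjusted p = 0.636). Jund, also on chromosome 8, encodes the Jun protein present in resting cells, which slows fibroblast growth. Jund 1449117_at read 1878.0, 1663.4 and 1874.4 in R388A/Y527F cells, against 1879.6, 1935.3 and 1852.6 in D386N/Y527F cells. These were nearly level, and the 95% interval of the log2 difference, -0.27 to 0.13, was the narrowest among the uncalled AP-1 probe sets. Jund 1440265_at lay between 9.5 and 25.8 in R388A/Y527F cells and between 9.1 and 22.3 in D386N/Y527F cells, above the floor on 2 of the 6 arrays. In the authors' alignment it ends 146 bases before the alignment of 1449117_at begins.

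Fosl2, on chromosome 5, encodes Fra-2, which like Fra-1 lacks the activation domain of Fos. Fosl2 1437247_at read 289.9, 327.1 and 316.6 at 0, 1 and 12 h in R388A/Y527F cells, against 272.6, 295.0 and 254.7 in D386N/Y527F cells. The lines overlapped, with a difference of 0.18 (95% interval -0.03 to 0.40, limma adjusted p = 0.257). Fosl2 1422931_at lay between 89.6 and 94.4 in R388A/Y527F cells and between 84.5 and 105.7 in D386N/Y527F cells, with a 95% interval of -0.42 to 0.42. In the second summary the differences were 0.04 for Junb, -0.06 and -0.11 for Jund 1449117_at and 1440265_at, and 0.04 and -0.14 for Fosl2 1437247_at and 1422931_at, and limma called none of them. A difference that was not called is not shown to be 0, and the intervals give the sizes these arrays allow.

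**Figure D2:**
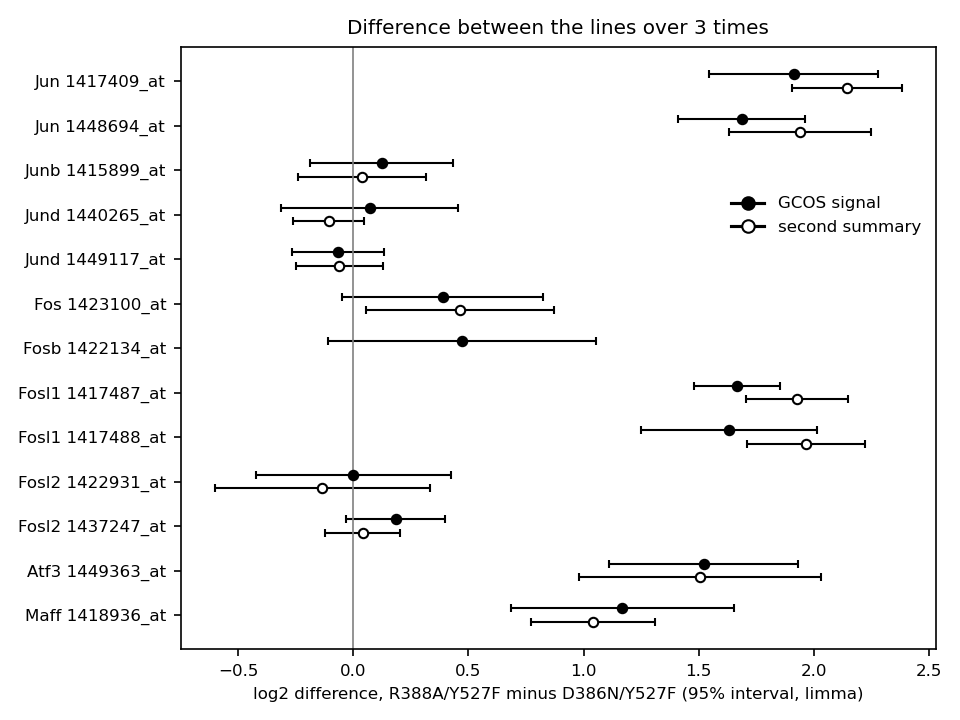
Log2 difference between the lines, R388A/Y527F minus D386N/Y527F, for each AP-1 probe set, with the 95% interval from limma over the 3 times. Filled points are GCOS signal and open points the second summary, in which Fosb was not fitted. The probe sets of Jun, Fosl1, Atf3 and Maff lie to the right of 0 in both, the lowest being Maff at 1.17 and 1.04.

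Compared at each time, 1 array against 1 and therefore without a test, 5 AP-1 probe sets were at least 2-fold brighter in R388A/Y527F cells at 0 h, against 3.45% of all probe sets. At 1 h and 12 h there were 6 each, against 2.88% and 2.52%. At the 3 times 0 were 2-fold dimmer, against 1.82%, 2.97% and 3.26%. Maff was the one short of 2-fold at 0 h, with a log2 ratio of 0.96 there, 1.49 at 1 h and 1.05 at 12 h. Atf3 had log2 ratios of 1.18, 1.78 and 1.6 at 0, 1 and 12 h. The counts were the same in the second summary, against 1.86%, 1.91% and 1.86% of all probe sets. All R388A/Y527F arrays were above all D386N/Y527F arrays for 6 of the 13 probe sets, against 14.8% of all tested, and below for 0, against 15.4%. The second summary had 6 and 0 of 12, against 17.0% and 21.2%.

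Some of the calls were lost when arrays were left out, which leaves fewer residual degrees of freedom than the 2 of the full fit. Leaving out each array, or both arrays of a time, in 9 settings left between 2 and 6 AP-1 probe sets called higher by limma. There were 5 without the R388A/Y527F array at 0 h, 2 without that at 1 h and 3 without that at 12 h. There were 6, 3 and 3 without the D386N/Y527F array at 0, 1 and 12 h, and 6, 2 and 3 without both arrays of those times. Leaving out either array of a time, or both, gave the same line difference, because an array without its partner says nothing about the lines. The 9 settings therefore hold 3 distinct line differences and are not 9 separate checks. Jun 1448694_at and Fosl1 1417487_at were called in all 9, with adjusted p-values of 0.00687 to 0.0453 for Jun and 0.00217 to 0.0403 for Fosl1. Jun 1417409_at was called in 6 of 9 (largest limma adjusted p = 0.0663), Fosl1 1417488_at in 4 (0.0668), Atf3 in 3 (0.0792) and Maff in 2 (0.123). Their differences kept their size, between 1.39 and 1.69 for Atf3 and between 1.01 and 1.27 for Maff. Over all 29728 probe sets the count of calls in the same settings fell more, from 2028 higher and 2154 lower with all arrays. Without the R388A/Y527F array at 0, 1 and 12 h there were 880, 56 and 166 higher. The counts were 894, 96 and 176 without the D386N/Y527F array of those times, and 914, 82 and 175 without both. The fewest lower calls were 25, without the R388A/Y527F array at 1 h.

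Of the 11 fibroblast markers, limma called 2 higher in R388A/Y527F cells and 3 lower, against 6.82% and 7.25% of all probe sets, and in the second summary 3 higher and 6 lower, against 10.7% and 14.0%. Thy1 read 52.1, 37.6 and 34.5 at 0, 1 and 12 h in R388A/Y527F cells, against 143.1, 165.2 and 132.0 in D386N/Y527F cells. Pdgfrb, a growth factor receptor that feeds the MAP kinases, read 80.1, 57.9 and 86.2 in R388A/Y527F cells, against 169.8, 195.6 and 216.1 in D386N/Y527F cells. P4ha1, a collagen-modifying enzyme, was also lower, with a difference of -0.58. The related receptor Pdgfra was higher by 0.52 (SE 0.08, limma adjusted p = 0.00406) and the matrix protein Fn1 by 0.66 (SE 0.10, limma adjusted p = 0.00417). In the second summary Thy1 was under the floor in R388A/Y527F cells, at 10.6, 10.8 and 10.7, against 90.2, 62.3 and 56.8 in D386N/Y527F cells. These 5 markers were named after their values were seen. Their part in the AP-1 differences was not tested. Of the other markers, Map2 of neurons was higher by 0.93, with a summed neural signal of 336.7 to 414.0 in R388A/Y527F cells and 250.8 to 302.3 in D386N/Y527F cells, and 0 epithelial, endothelial, blood or muscle markers were called.

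No AP-1 gene changed 2-fold in GCOS signal after imidazole in either line, and the widest step from 0 h was that of Jun in R388A/Y527F cells at 12 h. Comparisons within a line are 1 array against 1 and have no test. Of the 13 probe sets, 0 changed 2-fold in GCOS signal in R388A/Y527F cells at 1 h over 0 h, against 2.24% of all probe sets, and 0 at 12 h over 0 h, against 2.11%. In D386N/Y527F cells there were also 0 at 1 h and at 12 h, against 2.39% and 2.52%. Between 1 h and 12 h there were 0 in both lines, against 2.75% in R388A/Y527F cells and 2.26% in D386N/Y527F cells.

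Jun 1417409_at had a log2 ratio of 12 h to 0 h of -0.60 in R388A/Y527F cells and of 0.43 in D386N/Y527F cells. Jun 1448694_at had ratios of -0.37 in R388A/Y527F cells and -0.29 in D386N/Y527F cells at 12 h. In the second summary Jun was below its 0 h value at 12 h in both lines with both probe sets, with ratios of -0.58 and -0.52 in R388A/Y527F cells and of -0.16 and -0.19 in D386N/Y527F cells. The probe sets and summaries therefore gave the same sign for Jun in R388A/Y527F cells at 12 h and different signs in D386N/Y527F cells. At 1 h the Jun ratios in GCOS signal were 0.01 and 0.31 in R388A/Y527F cells and 0.38 and -0.18 in D386N/Y527F cells. The second summary gave -0.16 and 0.10 in R388A/Y527F cells and -0.09 and -0.15 in D386N/Y527F cells, so neither line had 1 sign throughout.

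Fos was lower at 1 h and 12 h than at 0 h in both lines and both summaries. Its log2 ratio at 1 h was -0.44 in R388A/Y527F cells and -0.57 in D386N/Y527F cells, and -0.31 and -1.05 in the second summary. The last of these passed 2-fold, as did 0.0472% of all probe sets in that direction there. At 12 h the ratios were -0.33 in R388A/Y527F cells and -0.47 in D386N/Y527F cells, and -0.21 and -0.43 in the second summary.

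Atf3 differed between the summaries in D386N/Y527F cells at 1 h, with a log2 ratio to 0 h of -0.47 in GCOS signal and 0.26 in the second summary. At 12 h its ratios in that line were -0.52 and -0.93, and the step between 1 h and 12 h in the second summary, -1.20, passed 2-fold, as did 0.0619% of all probe sets in that direction there. In R388A/Y527F cells the Atf3 ratios were 0.13 at 1 h and -0.10 at 12 h, and 0.21 and -0.03 in the second summary. Maff was lower at 1 h in D386N/Y527F cells, with ratios of -0.58 and -0.69 in the 2 summaries, and in R388A/Y527F cells its ratios were -0.05 and -0.42. Fosl1 1417487_at stayed within 0.23 of its 0 h value on every later array in GCOS signal. In D386N/Y527F cells it reached -0.37 at 12 h in the second summary, and Fosl1 1417488_at reached 0.36 at 1 h in GCOS signal.

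**Figure D3:**
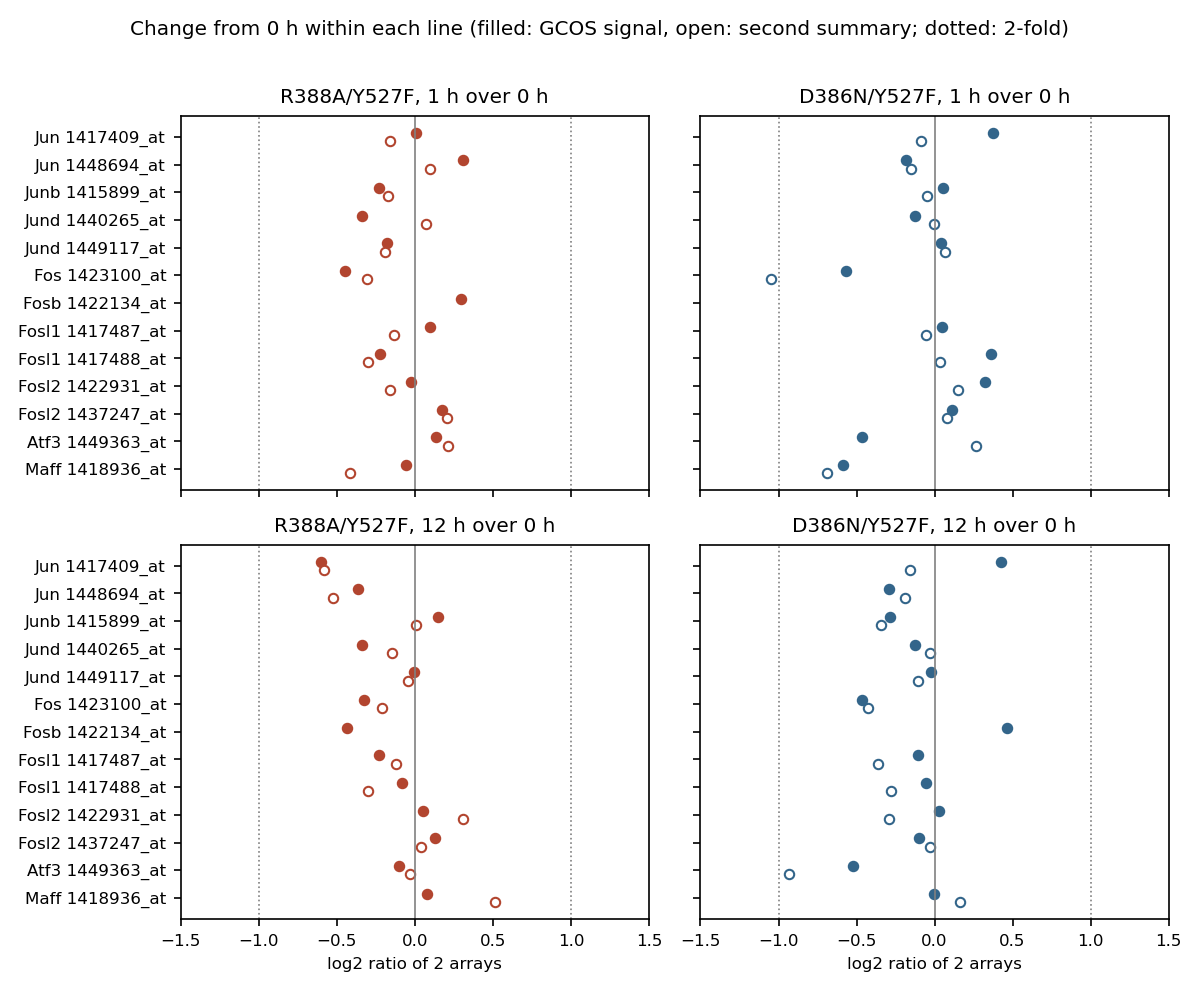
Log2 ratio of the 1 h array (top) and the 12 h array (bottom) to the 0 h array of the same line, R388A/Y527F left and D386N/Y527F right, for each AP-1 probe set. Filled points are GCOS signal, open points the second summary, signals under the floor are set to it, and dotted lines mark 2-fold. Fosb is shown in GCOS signal only, and not in D386N/Y527F cells at 1 h, where both its signals were under the floor. Fos lies left of 0 in all 4 panels, and 1 point, Fos in D386N/Y527F cells at 1 h in the second summary, lies beyond 2-fold.

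In limma, which here uses the 2 lines as if they were repeats of a time, the changes common to both lines were called for 0 AP-1 probe sets at 1 h and 0 at 12 h. Over all 29728 probe sets the fit also called 0 at each time, and at an unadjusted p under 0.05 it held 0 AP-1 probe sets at either time, against 2.46% of all probe sets higher and 1.56% lower at 1 h. At 12 h the shares were 3.99% higher and 3.34% lower. The common change of Fos at 1 h was -0.51 (95% interval -1.04 to 0.03), and in the second summary -0.68 (95% interval -1.18 to -0.18, limma adjusted p = 0.927). Maff had -0.55 at 1 h there, with the same adjusted p. Jun 1448694_at had -0.33 at 12 h (95% interval -0.67 to 0.01, limma adjusted p = 0.702). In the second summary 2 probe sets were lower at 1 h at an unadjusted p under 0.05, those of Fos and Maff, against 2.79% of all. At 12 h there was 1 lower, Jun 1417409_at, against 6.93% of all, and 1 higher, Maff, against 4.27%.

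The study's question of whether the rescued kinase changes these genes is addressed by the change with imidazole in R388A/Y527F cells minus that in D386N/Y527F cells. That difference was called for 0 of the 13 AP-1 probe sets and for 0 of all 29728 in limma, a fit that takes both treated arrays of a line as 2 samples of 1 kind. At an unadjusted p under 0.05, 0 AP-1 probe sets passed, against 1.09% of all higher and 2.61% lower. Jun 1417409_at had the most negative value, -0.70 (95% interval -1.62 to 0.22, limma adjusted p = 0.996), and Jun 1448694_at had 0.21 (95% interval -0.85 to 1.26). Atf3 had the most positive, 0.51 (95% interval -0.31 to 1.33, limma adjusted p = 0.996). Fosl1 1417487_at had -0.04 (95% interval -0.68 to 0.60), Maff 0.31 (95% interval -0.90 to 1.52) and Fos 0.13 (95% interval -0.75 to 1.02). These intervals reach past 2-fold in at least 1 direction for Jun, Atf3, Maff and Fos, so a difference of that size could not be told from none with 1 array per group.

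Other bZIP genes whose proteins can pair or compete with AP-1 did not share a direction between the lines. Of 28 listed genes 24 could be tested, 2 were higher in R388A/Y527F cells and 2 lower in limma, and 20 were not called. The background was 6.82% higher and 7.25% lower, and the median difference of the 24 was -0.02, against -0.01 over all probe sets. Cebpd, an inflammation-induced factor, read 142.0, 148.0 and 125.6 at 0, 1 and 12 h in R388A/Y527F cells, against 85.1, 44.6 and 71.1 in D386N/Y527F cells, a difference of 1.1 (SE 0.23, adjusted p = 0.0157). Atf4, the factor of the amino acid and endoplasmic reticulum stress responses, was higher by 0.52 (SE 0.09, adjusted p = 0.00771). Maf, a large Maf protein with an activation domain, read 170.3, 248.6 and 133.1 in R388A/Y527F cells, against 317.5, 349.5 and 347.0 in D386N/Y527F cells, with a difference of -0.92 (SE 0.16, adjusted p = 0.00597). Bach1, a repressor that pairs with small Maf proteins, had a difference of -0.33 (SE 0.09, adjusted p = 0.0365). Maff and Maf, which bind related DNA elements, thus differed between the lines in opposite directions.

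Of 23 listed kinases and factors upstream of AP-1, 18 could be tested, 2 were higher and 3 lower, against 6.82% and 7.25% of all probe sets, with a median of -0.06. Mapk7, the kinase ERK5, was higher by 0.70 (SE 0.16, adjusted p = 0.0220 in limma), and Map2k3, a kinase that activates p38, by 0.34. Map2k1, the ERK activator MEK1, read 925.6, 847.5 and 886.6 at 0, 1 and 12 h in R388A/Y527F cells, against 1396.8, 1277.6 and 1291.3 in D386N/Y527F cells, a difference of -0.58 (SE 0.07, adjusted p = 0.00174). Mapk14, which encodes p38 alpha, had -0.43, and Map2k5, the ERK5 activator MEK5, had -0.34. Map2k5 is named here after its value was seen. Of the ERK5 pair, the kinase was higher and its activator lower. mRNA levels do not show kinase activity, which was not measured on these arrays.

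Of 39 genes described elsewhere as AP-1 targets, 28 could be tested, 8 were higher in R388A/Y527F cells, 5 were lower and 15 were not called, against 6.82% higher and 7.25% lower of all probe sets. In the second summary 8 of 27 were higher and 7 lower, against 10.7% and 14.0%. The median difference of the list was -0.06 in GCOS signal and 0.02 in the second summary, against -0.01 over all probe sets in each. The list had calls in both directions. Hmga2, a chromatin protein of embryonic and transformed cells, read 3056.9, 3714.9 and 3556.7 at 0, 1 and 12 h in R388A/Y527F cells, against 251.6, 200.0 and 406.5 in D386N/Y527F cells, a difference of 3.65 (SE 0.17). Ccnd1, cyclin D1 of the G1 phase, read 1626.0, 1369.0 and 1551.8 in R388A/Y527F cells, against 196.3, 187.1 and 179.0 in D386N/Y527F cells, a difference of 3.01 (SE 0.08, adjusted p = 1.02e-06 in limma). These 2 differences were larger than that of any AP-1 probe set.

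Ptgs2, the inducible cyclooxygenase, was dim, at 52.6, 30.9 and 71.3 in R388A/Y527F cells, against 14.0, 19.0 and 28.3 in D386N/Y527F cells. Its difference of 1.1 passed in GCOS signal (limma adjusted p = 0.0184) and not in the second summary, where it was 0.61 (limma adjusted p = 0.0803). Lox, which crosslinks collagen, went the other way, with 1302.7, 1215.0 and 1078.5 in R388A/Y527F cells, against 2996.8, 3174.8 and 2482.4 in D386N/Y527F cells, a difference of -1.26 (SE 0.08, limma adjusted p = 8.55e-05). The other 4 that were lower, named here after their values were seen, were the gelatinase Mmp9 at -0.78, the chemokine Ccl2 at -0.58, haem oxygenase Hmox1 at -0.55 and ezrin, Ezr, at -0.32. The other 5 that were higher were also named after their values were seen. They included Cd44, the hyaluronan receptor, at 0.85, the growth factor Hbegf at 0.82 and the urokinase receptor Plaur at 0.81. The protease inhibitor Timp1 at 0.45 and the cell cycle inhibitor Cdkn2a at 0.43 completed the 5. Cdkn2a did not pass in the second summary, where it was 0.45 (limma adjusted p = 0.0587). Called in that summary and not in GCOS signal were Vim and Lor, higher, and Mmp3 and Fth1, lower. For the common changes at 1 h and 12 h and for the difference of treated changes, limma called 0 genes of each of the 3 lists.

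**Figure D4:**
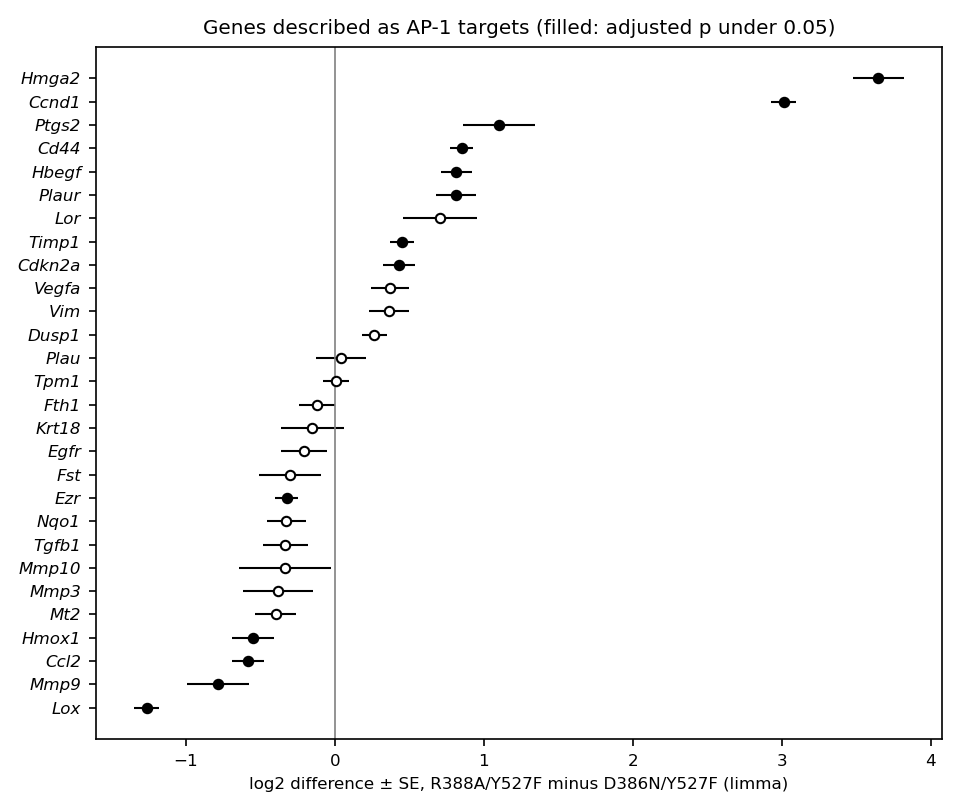
Log2 difference between the lines, R388A/Y527F minus D386N/Y527F, with its SE from limma, for the 28 tested genes described as AP-1 targets, in order of size. Filled points passed an adjusted p of 0.05. They lie on both sides of 0, from Hmga2 at 3.65 to Lox at -1.26.

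The genes whose pattern over the 6 arrays was most like that of Jun, Fosl1 or Atf3 were found among 1220 probe sets that varied enough to be compared, by the lower of the Pearson correlations in the 2 summaries. The 6 points share 2 lines, so a gene that differs steadily between the lines correlates with any other such gene, and the values are a description. For Jun they were Trps1 at 0.993 and 0.994 (GCOS, then the second summary), Vcan at 0.997 and 0.992, Fut8 at 0.991 and 0.999, and Wnt7b at 0.993 and 0.991. For Fosl1 they were Ccnd1 at 0.997 and 0.998, Gja1 at 0.997 and 0.998, Errfi1 at 0.997 and 0.996, and Elavl2 at 0.995 and 0.997. For Atf3 the correlations were lower, with Pabpc4 at 0.974 and 0.972, Nhp2 at 0.969 and 0.969, Fgf7 at 0.980 and 0.967, and Tusc1 at 0.970 and 0.966.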

How the data were processed

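Total RNA from 6 samples, 1 per group, was amplified in 1 round and labelled with biotin, per the labels. The deposited values are linear intensities processed with GCOS 1.3, per the submitters' processing notes, and scaled to a trimmed mean of 150. A second deposited intensity summary has no stated method. Symbols came from the platform annotation; 34741 of 34945 single symbols were matched by Entrez identifier and 0 changed, while 932 probe sets had several symbols and 9160 none.

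Members and lists were chosen with earlier results of these data known. Signals under the 40th percentile were set to it and values taken to log2. All probe sets above it on at least 2 arrays were fitted with limma 3.58.1 (R 4.3.3) with a variance trend, as line plus time or as line by treatment, with Benjamini-Hochberg adjustment; both fits leave 2 residual degrees of freedom. A 1-array comparison counted at 2-fold with the brighter array above the floor. The number of arrays limits the precision. The fits were tested on simulated data.

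All AP-1 probe sets were named. A gene's first probe set had the most specific suffix, then the highest mean. The rule named up to 4 called genes per list, and further called genes were named after their values were seen. The 4 most similar genes for Jun, Fosl1 and Atf3 were named among probe sets whose log2 range was at least 1. Alternatives were the second summary, quantile normalization, a floor at the 60th percentile, a pseudocount of 16, no filter, 1 probe set per gene, no trend, 1.5-fold, and leaving out arrays. RefSeq promoters were searched with Python 3.11.15.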

Additional observations from a re-analysis of the deposited data

How the results depend on the processing

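No paired analysis was possible because each group was 1 array and the labels give no replicate numbers to pair by; time was already a term of the line fit. Between the lines, 6 AP-1 probe sets were called higher in limma with the second summary (of 12), quantile normalization, the floor at the 60th percentile (of 11), the pseudocount and no variance trend, and 4 of 9 with 1 probe set per gene. Leaving out arrays gave 2 to 6. With no filter on dim probe sets the count was 0: 12286 of 45037 probe sets were then at the floor on all arrays, with no spread, and their part in this was not tested. There limma called 0 of all probe sets for the line (3311 higher and 3529 lower at an unadjusted p under 0.05). In the same setting 1 AP-1 probe set, Jund 1440265_at, was called for the difference of treated changes, as were 381 higher and 560 lower of all probe sets. For Jund it was -0.21 (limma adjusted p = 0.000231, range over its alternatives 0.000231 to 1.00). All 4 treated arrays of that probe set were under the floor and set to it, so they had no spread for the test to measure. The value comes from the 0 h arrays alone, 25.8 in R388A/Y527F cells and 22.3 in D386N/Y527F cells, and shows no treated change. Line calls over all probe sets were 2028 higher and 2154 lower, against 2937 and 3846 in the second summary, 2302 and 2501 with the higher floor, 581 and 491 without the trend and 1251 and 1477 with 1 probe set per gene. The 17 2-fold line differences of 39 were 17 in the second summary, 16 with the higher floor, 11 of 27 with 1 probe set per gene, where fewer probe sets enter, and 20 at 1.5-fold. The 0 2-fold time changes of 78 became 2 in the second summary, where the cause was not tested, and 5 at 1.5-fold, all lower. In R388A/Y527F cells these were both Jun probe sets and Fosb at 12 h over 1 h, and Jun 1417409_at at 12 h over 0 h. In D386N/Y527F cells it was Maff at 1 h over 0 h, at 1.5 exactly. Fosb was near the floor, at 39.9 and 24.0. The share of all probe sets at 1.5-fold is not given here, so the 1.5-fold counts have no background and show no trend. No called difference changed sign, and 59 of 592 uncalled values did. The difference of treated changes was not run without a 0 h array or without both arrays of a time, which leave no residual degrees of freedom or no baseline. With 1 array per group, the p-values rest on times or lines standing in for replicates.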
